A study of Mus musculus with 24 samples.

Results

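Described here are 9 genes through which interleukin-1 and the interleukin-6 family signal in the liver: the interleukin-1 receptor Il1r1, its accessory chain Il1rap and its antagonist Il1rn, the interleukin-6 receptor Il6ra, the shared signal-transducing chain Il6st (gp130), the oncostatin M and leukaemia inhibitory factor receptors Osmr and Lifr, the transcription factor Stat3 and its feedback inhibitor Socs3. They were chosen by name from the pathway, and all 9 were among the 23240 gene rows of the count table and among the 13773 genes that had enough reads to be tested. RNA was sequenced from 24 livers of female NSG mice, a strain with severe combined immunodeficiency and no interleukin-2 receptor gamma chain, aged 8 weeks per the labels. Each mouse had 2 injections a week by tail vein over 5 weeks, and livers were collected 2 days after the final dose. There were 4 treatments with 6 livers each: phosphate-buffered saline (PBS), extracellular vesicles (EVs, membrane particles shed by cells) of MCF10A cells, EVs of MCF10A/miR-122 cells, and EVs of MDA-MB-231 cells, with about 10 µg of EVs at each injection. MCF10A is a non-tumorigenic human breast epithelial line and MDA-MB-231 a metastatic human breast cancer line. The name MCF10A/miR-122 adds miR-122, the most abundant microRNA of hepatocytes, and the labels do not say how the cells came to carry it. All mice share the NSG background, which lacks mature T, B and NK cells, and the labels do not say whether PBS was the solvent of the EVs.

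Interleukin-1 binds the receptor encoded by Il1r1, which then recruits the accessory chain encoded by Il1rap, and the adaptor Myd88 carries the signal to the NF-kB factors. The antagonist encoded by Il1rn occupies the receptor without recruiting the accessory chain. Interleukin-6 binds the receptor encoded by Il6ra, on the membrane or shed from it, and the complex engages gp130, whose associated Janus kinases phosphorylate STAT3. In hepatocytes STAT3 and the C/EBP factors drive the acute phase proteins and Socs3, and the Socs3 protein then binds gp130 and shuts the signal down.

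Promoter sequences are given for 3 members because Il1r1 and Il6ra carried 7 of the 8 calls described below and because Socs3 is the textbook STAT3 target of the group. They are the 250 bases before a RefSeq start site in the mouse build GRCm38.p6, 5′ to 3′ on the gene's strand, and they come from the reference and not from these mice. The counts were made on another build, mm9, so these positions were not joined to them. Capitals mark a match to 1 of 3 motifs that were searched on both strands: the STAT motif TTCNNNGAA, the C/EBP motif TTGCNNAA and an NF-kB motif. The pair of Il1r1 start sites lies at chr1:40224830-40225079 and chr1:40266336-40266585 on the plus strand, that of Il6ra at chr3:89913197-89913446 and that of Socs3 at chr11:117969367-117969616, both on the minus strand.
Il1r1 start 1: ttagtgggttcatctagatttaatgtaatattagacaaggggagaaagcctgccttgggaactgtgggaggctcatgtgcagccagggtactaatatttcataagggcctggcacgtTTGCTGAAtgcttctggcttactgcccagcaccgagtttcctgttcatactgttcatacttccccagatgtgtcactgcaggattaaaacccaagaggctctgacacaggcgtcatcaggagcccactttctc
Il1r1 start 2: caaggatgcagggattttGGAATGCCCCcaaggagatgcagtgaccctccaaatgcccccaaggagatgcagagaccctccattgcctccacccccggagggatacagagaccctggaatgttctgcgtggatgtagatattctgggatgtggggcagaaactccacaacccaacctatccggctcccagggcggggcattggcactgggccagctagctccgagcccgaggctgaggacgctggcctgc
Il6ra: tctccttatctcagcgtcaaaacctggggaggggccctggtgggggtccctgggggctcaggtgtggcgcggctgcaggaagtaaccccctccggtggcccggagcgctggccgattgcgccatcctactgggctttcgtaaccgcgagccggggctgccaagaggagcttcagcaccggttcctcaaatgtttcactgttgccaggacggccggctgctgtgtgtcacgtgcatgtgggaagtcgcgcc
Socs3: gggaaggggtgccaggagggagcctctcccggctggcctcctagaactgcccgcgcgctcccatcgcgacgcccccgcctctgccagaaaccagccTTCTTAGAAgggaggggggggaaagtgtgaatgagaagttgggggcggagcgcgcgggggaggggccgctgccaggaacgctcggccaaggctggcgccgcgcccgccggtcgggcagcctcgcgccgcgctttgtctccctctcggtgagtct

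The capitals in the sequence of Il1r1 start 1 are a C/EBP match, TTGCTGAA, from 133 to 126 bases before the start. Those in the sequence of start 2 are an NF-kB match on the opposite strand, from 232 to 223 bases before the start. In Socs3 they are a STAT match, TTCTTAGAA, from 154 to 146 bases before the start, and the Il6ra window holds no match to these 3 motifs. The GENCODE M21 annotation draws the Socs3 gene over chr11:117966079-117970047, so it places the 5′ end further upstream. By that annotation the Socs3 window lies inside the gene. All 9 members had an entry in the table, with 13 start sites in all, and each motif was found at 1 of the 13. Over the 32851 mouse promoter windows of the same length, 7.02% held the STAT motif, 9.56% the C/EBP motif and 3.9% the NF-kB motif. A match is a description of letters and shows no binding.

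Each library held 21.3 to 33.7 M (mega) counts. The 24 libraries fall into 2 sets that the treatments do not cross. Serpina3a, a serine protease inhibitor gene singled out after its values were seen, was at 110 to 325 CPM (counts scaled to the library's TMM-adjusted total by edgeR's cpm function) in the 12 PBS and MCF10A EV libraries and at 0.285 to 5.85 CPM in the other 12, and their totals were 25.9 ± 2.53 and 30.9 ± 1.95 M counts (SD, n = 12 each). For MCF10A/miR-122 EV or MDA-MB-231 EV against PBS or MCF10A EV, the set and the treatment therefore cannot be told apart. Within a set lie MCF10A EV against PBS and MDA-MB-231 EV against MCF10A/miR-122 EV. The library names also go against 12 labels, since the names of the MCF10A/miR-122 EV group carry a tag of the MDA-MB-231 line and those of the MDA-MB-231 EV group a tag of the miR-122 line. Groups are called by their label, and if the names were right every value of these 2 groups would be exchanged. The tissue label was checked on 9 hepatocyte markers, which summed to 121400 to 165900 CPM in each library. The 7 lymphocyte markers summed to at most 0.419 CPM. The labels do not say in so many words that each library is a separate mouse, and if some were not, p-values would measure technical spread.

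Of the 9 members, Il1r1 rose in all 3 EV groups against PBS, Il6ra rose in the MCF10A/miR-122 EV and the MDA-MB-231 EV groups, and Il1rap rose in the MDA-MB-231 EV group. Il1rn, Il6st, Osmr, Lifr, Stat3 and Socs3 passed the test in no comparison. A gene counted as changed at an adjusted p under 0.05, from edgeR's quasi-likelihood test on all 24 libraries with Benjamini-Hochberg adjustment over the 13773 genes. In the comparison of MCF10A EV with PBS this called 1 of 9 members (11.1%), beside 1.07% of all genes tested. In that of MCF10A/miR-122 EV with PBS it called 2 of 9 (22.2%), beside 17.9% of all genes, and in that of MDA-MB-231 EV with PBS 3 of 9 (33.3%), beside 11.7%. It called 2 of 9 between MCF10A/miR-122 EV and MCF10A EV, beside 16.2% of all genes. The shares of 22.2% are near the background, and with 9 members a share moves in steps of 11.1 percentage points. No member was called between MDA-MB-231 EV and MCF10A EV, where 7.68% of all genes were, or between MDA-MB-231 EV and MCF10A/miR-122 EV, where 0.254% were. In neither of those comparisons did edgeR give any member an unadjusted p under 0.05, and DESeq2 and limma-voom also called 0 members there. A test of any difference among the 4 groups called Il1r1 and Il6ra, and 21.4% of all genes. The members' median log2 fold change against PBS was 0.08, 0.02 and 0.02 with MCF10A EV, with MCF10A/miR-122 EV and with MDA-MB-231 EV, and the median of all genes lay at 0.01, 0.00 and 0.00. These 3 comparisons share the 6 PBS libraries.

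**Figure D1:**
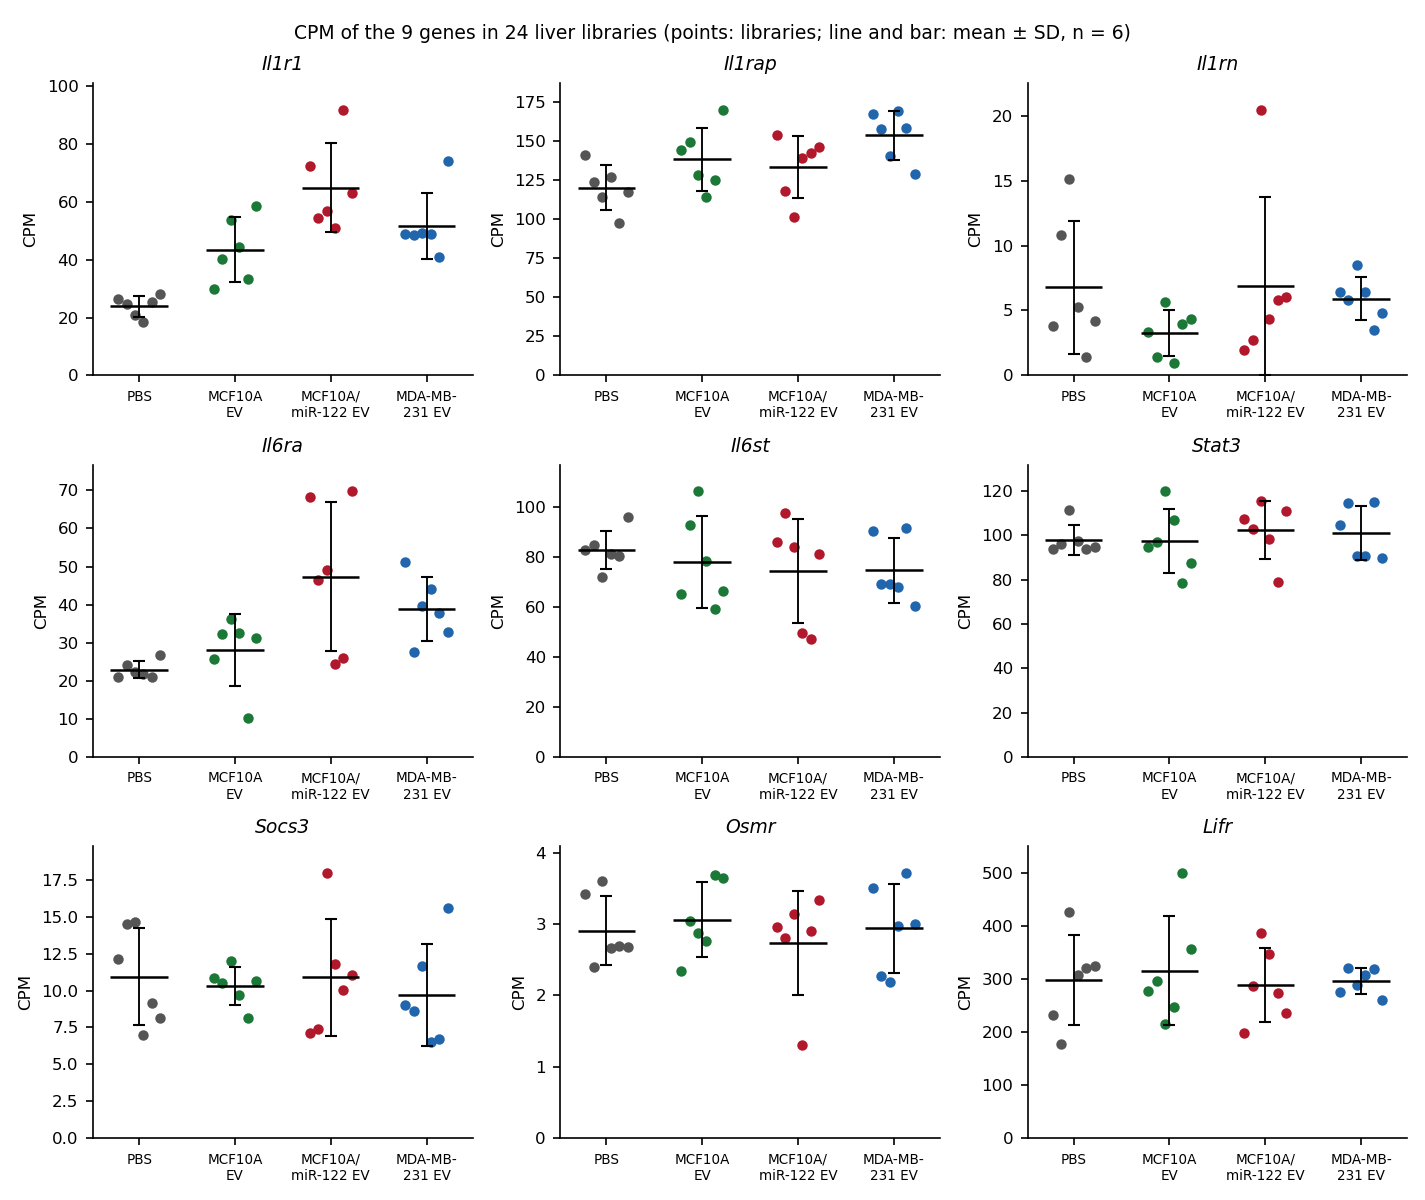
Level of each of the 9 genes in every library, in CPM with an axis of its own for each gene that starts at 0, by treatment group. Points are libraries, and the line and bar are the mean ± SD of 6. The Il1r1 points of all 3 EV groups lie above the highest PBS library at 28.0 CPM, while the groups overlap for Stat3, Socs3, Il6st, Osmr and Lifr.

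Il1r1, the receptor that binds interleukin-1, was at 26.4, 24.7, 20.96, 18.3, 25.3 and 28.0 CPM in the 6 PBS libraries, with a mean of 23.9 ± 3.63 (SD, n = 6). In the MCF10A EV libraries it was at 29.9, 40.3, 53.8, 44.2, 33.5 and 58.7 CPM, with a mean of 43.4 ± 11.3 (SD, n = 6). The lowest of these lies above the highest PBS library, so the groups do not overlap. In the MCF10A/miR-122 EV libraries it was at 72.5, 54.5, 56.8, 50.9, 91.9 and 63.2 CPM, with a mean of 65.0 ± 15.2 (SD, n = 6). The MDA-MB-231 EV libraries held 48.8, 48.5, 49.3, 48.8, 41.1 and 74.2 CPM, with a mean of 51.8 ± 11.4 (SD, n = 6). Of these 6, 5 lie between 41.1 and 49.3 CPM and replicate 6 stands above them, and neither group overlaps with PBS.

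The log2 fold change of Il1r1 against PBS was 0.86 (SE 0.17) in the MCF10A EV group, which is 1.81-fold, with an adjusted p of 0.0152 from edgeR. Within the comparison this was the gene with the 25th smallest p of all 13773. It was 1.44 (SE 0.17, 2.71-fold, edgeR adjusted p = 2.8e-06) in the MCF10A/miR-122 EV group and 1.11 (SE 0.17, 2.16-fold, edgeR adjusted p = 1.42e-04) in the MDA-MB-231 EV group. Of these 3, the first lies within a set of libraries. Without PBS replicate 3 it was 0.81 with an edgeR adjusted p of 0.0561, and in that fit the number of all genes called in the comparison fell from 147 to 26. The other contrasts with PBS passed the test without each of the 24 libraries in turn.

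Between the EV groups, Il1r1 was 1.5-fold higher with MCF10A/miR-122 EV than with MCF10A EV (log2 fold change 0.58, SE 0.17, edgeR adjusted p = 0.0179), and the groups overlap. Without MCF10A EV replicate 1, the lowest of its group, the difference was 0.49 with an edgeR adjusted p of 0.0503. The difference of MDA-MB-231 EV from MCF10A EV was 0.25 on the log2 scale (95% interval -0.09 to 0.60). That of MDA-MB-231 EV from MCF10A/miR-122 EV was -0.33 (95% interval -0.67 to 0.01). Neither passed the test, with edgeR adjusted p-values of 0.389 and 0.636. By mean, Il1r1 was thus lowest in PBS, then came MCF10A EV, MDA-MB-231 EV and MCF10A/miR-122 EV, and in this order only the step from PBS to MCF10A EV passed the test between neighbours.

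In the MCF10A EV and MDA-MB-231 EV groups Il1r1 rose against PBS, and 0 of 13 Kupffer cell and macrophage markers were called. Of all genes, 1.07% and 11.7% were called there, so 0 of 13 says little in either group. The summed level of the 13 markers was 341 to 442 CPM in PBS, 320 to 398 CPM with MCF10A EV and 291 to 435 CPM with MDA-MB-231 EV. In the MCF10A/miR-122 EV group the sum was 358 to 830 CPM, and 8 of the 13 were higher than in PBS (61.5%, beside 17.9% of all genes). Without replicate 3 of that group, the library at 830 CPM, 3 of the 13 were called. None of the 13 was at 0 in any group, and the part of these cells in the rise of Il1r1 was not tested in any EV group. Replicate 3 of the MCF10A/miR-122 EV group held 56.8 CPM of Il1r1, and the group's mean was 65.0 CPM. Of 10 sinusoidal endothelial markers, 1 was called against PBS in these 3 comparisons, Stab1 in the MCF10A/miR-122 EV group, and the sums lay at 289 to 367 CPM in PBS and 194 to 407 CPM in the EV groups. None of 11 stellate cell markers was called. In whole tissue, fewer cells of a type and less RNA per cell cannot be told apart.

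Il1rap, the accessory chain without which the bound receptor gives no signal, was at 97.5 to 141 CPM in PBS (median 120.4), 114 to 170 CPM with MCF10A EV, 101 to 154 CPM with MCF10A/miR-122 EV and 129 to 169 CPM with MDA-MB-231 EV. All 4 groups overlap. It rose 1.28-fold in the MDA-MB-231 EV group against PBS, with a log2 fold change of 0.36 (SE 0.11) and an edgeR adjusted p of 0.0305, and all 6 libraries lay above the PBS median. The call was lost when any of 8 of the 24 libraries was left out, with the adjusted p at most 0.0775, without MDA-MB-231 EV replicate 1. In the other groups the log2 fold changes against PBS were 0.21 (95% interval -0.01 to 0.43) and 0.15 (95% interval -0.07 to 0.37). A transcript on the opposite strand, Gm20319, covers 4.86% of the exon bases of Il1rap, and since the strand setting of the counting is not given in the sources used here its reads could add to the count.

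Since both chains are needed in the receptor complex, their ratio was taken within each library, which removes the scaling between libraries. Il1rap over Il1r1, in CPM, had a geometric mean of 5.04 in PBS (3.85 to 6.95), 3.26 with MCF10A EV (2.39 to 4.83), 2.08 with MCF10A/miR-122 EV (1.55 to 2.73) and 3.01 with MDA-MB-231 EV (1.73 to 3.86). The ratio thus fell against PBS in each EV group, by 0.63, 1.28 and 0.74 on the log2 scale. In exact two-sided permutation tests over libraries, 6 against 6, the p-values were 0.0108, 0.00216 and 0.00433, and 0.0464, 0.0162 and 0.026 after adjustment over the 30 ratios and comparisons tested. The value 0.00216 is the smallest that 924 rearrangements allow. The call for MCF10A EV against PBS was lost when any of 9 of its 12 libraries was left out, with adjusted p-values up to 0.0893. Between MCF10A/miR-122 EV and MCF10A EV the ratio fell by 0.65 on the log2 scale (exact permutation p = 0.00866, adjusted 0.0433), and that call was also lost in 9 of 12 cases. Il1r1 is the denominator, so these falls are not independent of its rise above.

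Il1rn, the receptor antagonist, was the most scattered member. The PBS libraries held 3.78, 10.8, 15.1, 5.29, 1.44 and 4.20 CPM, and the MCF10A EV libraries 3.31, 1.45, 5.65, 0.935, 3.95 and 4.36 CPM. The MCF10A/miR-122 EV libraries lay between 1.98 and 6.001 CPM except replicate 3 at 20.5 CPM, which is also the library with the highest macrophage marker sum, and the MDA-MB-231 EV libraries lay between 3.53 and 8.51 CPM. The SD came to 76.0%, 54.7%, 99.5% and 28.4% of the mean in these 4 groups. Over all 24 libraries the highest level of Il1rn was 21.9 times the lowest, while for Stat3 this factor was 1.53. The log2 difference of MCF10A EV from PBS was -1.04 (95% interval -2.12 to 0.03) and that of the other EV groups from PBS 0.02 and -0.20, and none passed the test. Il1rn over Il1r1 had a geometric mean of 0.219 in PBS, 0.0654 with MCF10A EV, 0.0795 with MCF10A/miR-122 EV and 0.112 with MDA-MB-231 EV. Its difference of MCF10A EV from PBS, -1.75 on the log2 scale, had an exact permutation p of 0.0325 and an adjusted p of 0.0974.

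**Figure D2:**
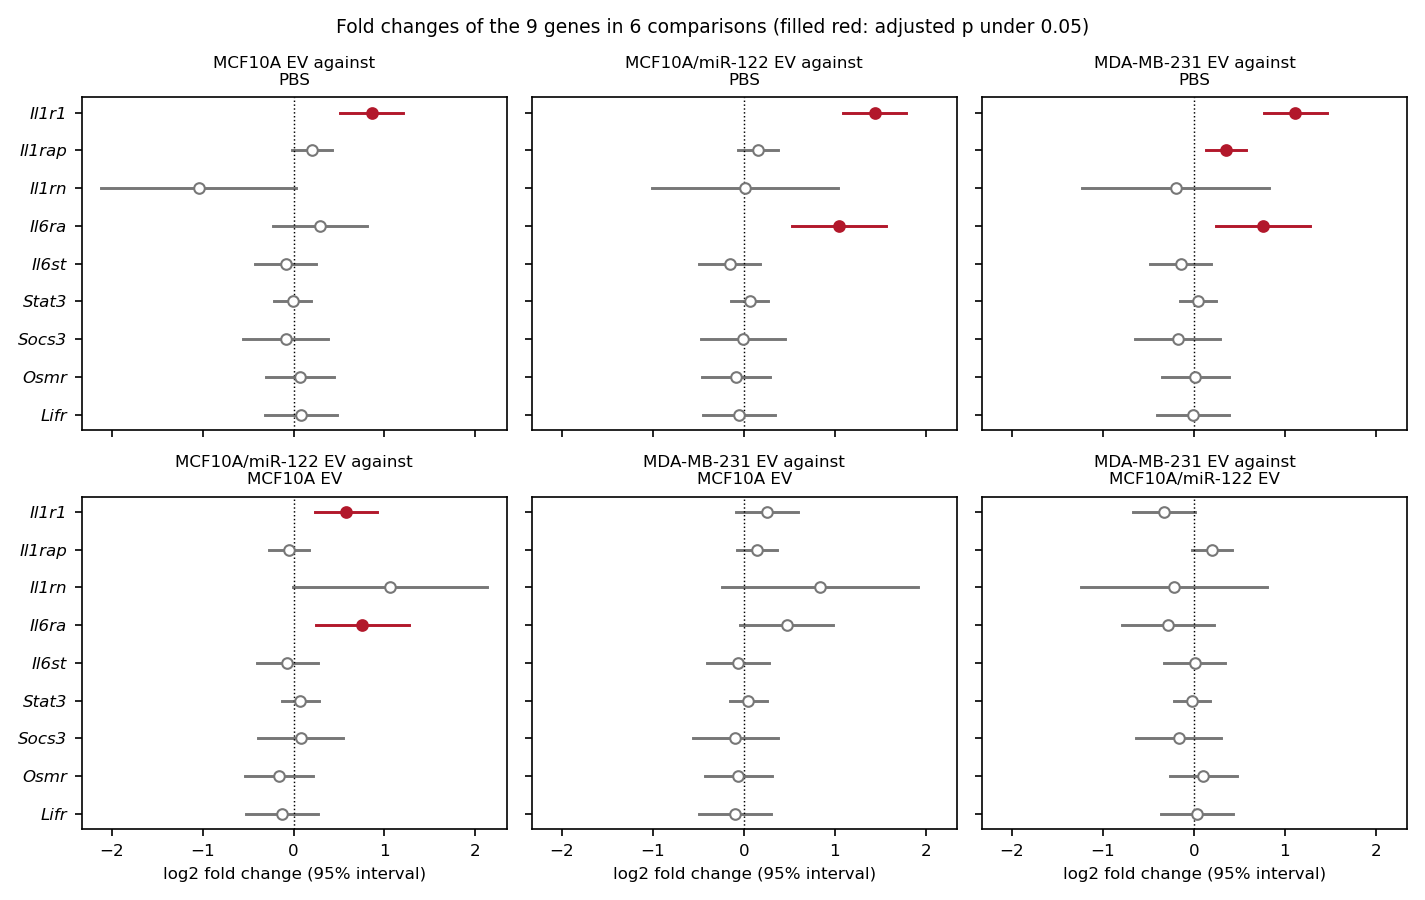
Log2 fold change of each gene in the 6 comparisons, with the 95% interval from edgeR as the bar, and filled points where the adjusted p is under 0.05. Il1r1 lies at 0.86, 1.44 and 1.11 against PBS, and the intervals of Stat3, the narrowest, stay between -0.22 and 0.27.

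Il6ra, the receptor chain that binds interleukin-6, lay in a narrow range in PBS, at 21.1, 24.1, 22.4, 21.9, 21.1 and 26.8 CPM, with a mean of 22.9 ± 2.22 (SD, n = 6). In the MCF10A EV libraries it was at 25.6, 32.4, 36.2, 32.6, 10.2 and 31.1 CPM, so that replicate 5 lay below all PBS libraries and 4 others above them. In the MCF10A/miR-122 EV libraries it was at 68.3, 46.4, 49.1, 24.5, 25.95 and 69.8 CPM, with a mean of 47.3 ± 19.6 (SD, n = 6). Replicates 4 and 5 lie within the PBS range and the other 4 lie above it. The MDA-MB-231 EV libraries held 51.2, 27.5, 39.6, 44.1, 37.8 and 32.8 CPM, with a mean of 38.8 ± 8.34 (SD, n = 6), and none overlaps with PBS.

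Il6ra rose 2.07-fold in the MCF10A/miR-122 EV group against PBS, with a log2 fold change of 1.05 (SE 0.25) and an edgeR adjusted p of 0.00519. In the MDA-MB-231 EV group it rose 1.7-fold (log2 fold change 0.76, SE 0.25, edgeR adjusted p = 0.0472). This second call is the least firm when a library is left out: it was lost without any of 18 of the 24. The edgeR adjusted p-values reached 0.109, while the log2 fold change without MDA-MB-231 EV replicate 1 was still 0.66. Some of the 18 are MCF10A EV or MCF10A/miR-122 EV libraries, which enter this comparison only through the shared fit. With only the 12 libraries compared, the edgeR adjusted p was 0.0025. Against MCF10A EV, Il6ra was 1.69-fold higher with MCF10A/miR-122 EV (log2 fold change 0.76, SE 0.25, edgeR adjusted p = 0.0383), and this call was lost without any of 6 libraries, with adjusted p-values up to 0.113. The lowest log2 fold change with 1 library left out, 0.59, came without MCF10A EV replicate 5. MCF10A EV differed from PBS by 0.29 (95% interval -0.22 to 0.81), the only within-set comparison of Il6ra with PBS, and it did not pass the test. By mean, Il6ra followed the same order of groups as Il1r1, and no step between neighbours in that order passed the test.

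Il6st, the gp130 chain that all receptors of the interleukin-6 family share, was at 71.8 to 95.8 CPM in PBS and at 59.2 to 106, 47.3 to 97.6 and 60.3 to 91.7 CPM with MCF10A EV, with MCF10A/miR-122 EV and with MDA-MB-231 EV. Its log2 fold changes over the 6 comparisons lay between -0.16 and 0.01, with 95% intervals from -0.49 to 0.34, and the smallest edgeR adjusted p was 0.546. The groups overlap in every comparison.

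Libraries low in Il6ra tended to be low in Il6st. MCF10A EV replicate 5 was the lowest of its group in both genes, at 10.2 and 59.2 CPM, and MCF10A/miR-122 EV replicates 4 and 5 were the 2 lowest of theirs, at 24.5 and 25.95 CPM of Il6ra and 49.7 and 47.3 CPM of Il6st. Over 24 libraries, the deviations of the pair from their group means had a Pearson r of 0.736, a description across libraries that also share depth and RNA composition. Within a library, Il6ra over Il6st was 0.255 to 0.312 in PBS (geometric mean 0.277), 0.172 to 0.471 with MCF10A EV (0.341), 0.475 to 0.862 with MCF10A/miR-122 EV (0.610) and 0.400 to 0.649 with MDA-MB-231 EV (0.516). On this scale the MCF10A/miR-122 EV libraries no longer overlap with PBS, nor with MCF10A EV.

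The ratio of Il6ra to Il6st rose by 1.14 on the log2 scale in the MCF10A/miR-122 EV group and by 0.90 in the MDA-MB-231 EV group against PBS, and by 0.84 in the MCF10A/miR-122 EV group against MCF10A EV. Each of these 3 had an exact permutation p of 0.00216, the smallest possible, and an adjusted p of 0.0162, and each was still called when any 1 of its 12 libraries was left out. The difference of MDA-MB-231 EV from MCF10A EV was 0.60 (exact permutation p = 0.0152, adjusted 0.0568). The within-set differences did not pass: MCF10A EV from PBS was 0.30 (exact permutation p = 0.184, adjusted 0.394) and MDA-MB-231 EV from MCF10A/miR-122 EV -0.24 (exact permutation p = 0.212, adjusted 0.424). All 3 called differences of this ratio cross the library sets. Il6ra is the numerator and Il6st was called in no comparison, so these rises are not independent of that of Il6ra above.

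**Figure D3:**
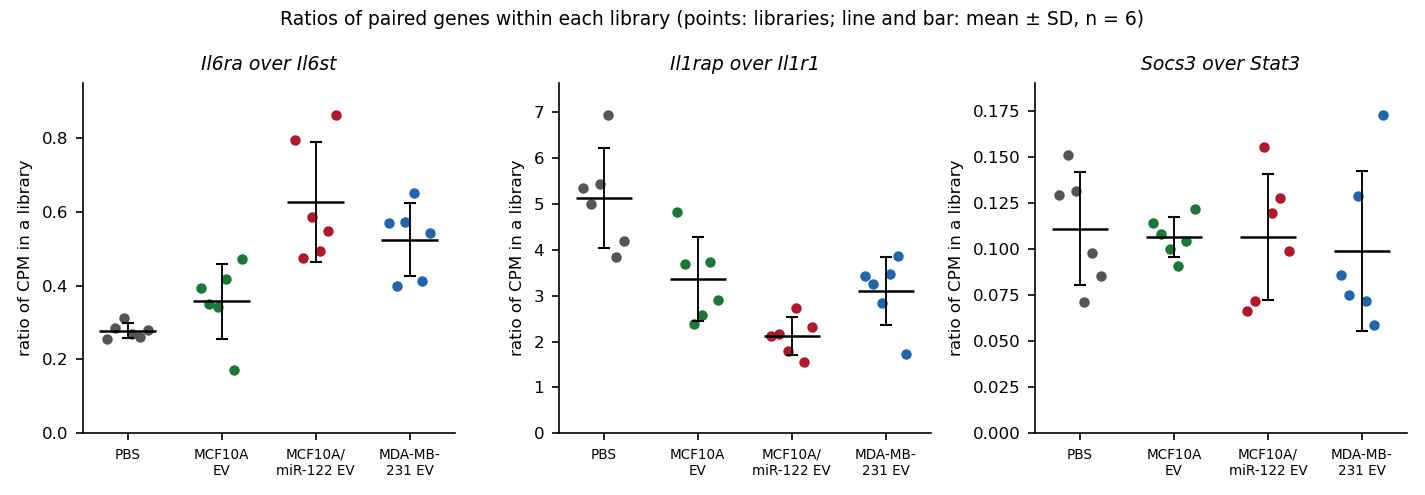
Ratio of CPM within each library for Il6ra over Il6st, Il1rap over Il1r1 and Socs3 over Stat3, by group, on axes that start at 0. Points are libraries, and the line and bar are the arithmetic mean ± SD of 6. The Il6ra over Il6st points of the MCF10A/miR-122 EV and the MDA-MB-231 EV groups, at 0.400 to 0.862, all lie above the highest PBS library at 0.312.

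Lifr, which pairs with gp130 to bind leukaemia inhibitory factor, was the most abundant member. It was at 178 to 425 CPM in PBS (median 315), 216 to 500 CPM with MCF10A EV, 198 to 387 CPM with MCF10A/miR-122 EV and 261 to 321 CPM with MDA-MB-231 EV, and all groups overlap. Its log2 fold changes lay between -0.13 and 0.08, with 95% intervals from -0.53 to 0.48. Osmr, the gp130 partner for oncostatin M, was the least abundant, with 38 to 117 counts in a library. It was at 2.39 to 3.61 CPM in PBS, 2.35 to 3.69 CPM with MCF10A EV, 1.30 to 3.33 CPM with MCF10A/miR-122 EV and 2.185 to 3.72 CPM with MDA-MB-231 EV. The log2 fold changes of Osmr lay between -0.16 and 0.10, with 95% intervals from -0.53 to 0.47. The library lowest in Osmr, MCF10A/miR-122 EV replicate 4 at 1.30 CPM, was also the lowest of all 24 in the sum of the 10 endothelial markers, at 194 CPM, and the part of the endothelial share in the Osmr level was not tested. Osmr over Lifr differed in none of the 6 comparisons, with adjusted p-values of 0.949 to 0.976 from exact permutation tests.

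Stat3, the transcription factor downstream of gp130, had the narrowest range of the 9 members over all 24 libraries. It was at 93.8 to 112 CPM in PBS, 78.4 to 120 CPM with MCF10A EV, 78.9 to 116 CPM with MCF10A/miR-122 EV and 90.0 to 115 CPM with MDA-MB-231 EV. Its log2 fold changes lay between -0.02 and 0.07, and the 95% intervals reach from -0.22 to 0.27. These are transcript levels, and STAT3 is activated by phosphorylation, which was not measured. Socs3, the STAT3-induced brake on gp130, was at 12.2, 14.5, 14.7, 6.99, 9.19 and 8.14 CPM in PBS. The other groups lay at 8.17 to 12.01, 7.11 to 18.0 and 6.55 to 15.6 CPM, with MCF10A EV, with MCF10A/miR-122 EV and with MDA-MB-231 EV. Its log2 fold changes lay between -0.18 and 0.08. The 95% intervals of the 6 comparisons, wider than those of Stat3, reached from -0.64 to 0.54. A change of a size within the interval of a comparison is not excluded there. Socs3 over Stat3 had a geometric mean of 0.108, 0.106, 0.102 and 0.0920 in PBS, then with MCF10A EV, with MCF10A/miR-122 EV and with MDA-MB-231 EV, and no comparison passed (lowest exact permutation p 0.429, adjusted 0.756). The highest Socs3 of the MCF10A/miR-122 EV group, 18.0 CPM, was in replicate 3, the same library that led in Il1rn.

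Levels of different genes can be set against each other only per length. In PBS, per kilobase of exon in the GENCODE M21 annotation, the order was Lifr at 27.7 CPM per kb, Il1rap at 10.6, Stat3 at 10.3, Il6st at 7.46, Socs3 at 3.79, Il1r1 at 3.76, Il6ra at 2.65, Il1rn at 1.22 and Osmr at 0.240. Il1rap and Stat3 differ by less than the SD of each (1.28 and 0.712), and so do Socs3 and Il1r1 (1.14 and 0.570). In the MCF10A/miR-122 EV group Il1r1 stood at 10.2 ± 2.39 CPM per kb (SD, n = 6), between Stat3 at 10.8 ± 1.37 and Il6st at 6.69 ± 1.87. Il6ra stood there at 5.48 ± 2.27, still below Il6st. Both ligand-binding chains were thus below their partner chain, Il1rap or Il6st, in every group by mean. In the MCF10A/miR-122 EV group, where Il1rap stood at 11.8 ± 1.74 CPM per kb (SD, n = 6), each pair differed by less than the SD of each gene. All 9 members shared at most 1.56% of their 32-base windows with another gene, so near-identical copies touch few of their reads.

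Several ligands of these receptors, named here for that role, had few or no counts in the liver RNA. Il6 had 0 to 2 counts in a library and 0 in 15 of 24. Osm had 0 to 4, Lif 0 to 6 and Il11 0 to 5, and the decoy receptor Il1r2 had 0 to 3, and none of these 5 genes passed the filter on low counts. Il1a, which encodes interleukin-1 alpha, was at 4.30 ± 0.908 CPM in PBS, 2.85 ± 0.662 with MCF10A EV, 3.24 ± 0.556 with MCF10A/miR-122 EV and 2.97 ± 0.504 with MDA-MB-231 EV (SD, n = 6 each). The log2 differences from PBS were -0.59, -0.41 and -0.53 in these 3 groups, and only the last passed the test (edgeR adjusted p = 0.0284), and the call was lost without any of 6 of the 24 libraries. Il1b was at 1.18 ± 0.484 CPM in PBS and 1.57 to 2.12 CPM by mean in the EV groups (n = 6 each) and was called in no comparison.

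The list of interleukin-1 family ligands and other receptors had 6 tested genes. In the MCF10A/miR-122 EV group 2 of them rose against PBS, a share of 33.3% beside 17.9% of all genes. They were Il18, a cytokine of the same family (9.47 ± 0.847 against 12.7 ± 0.793 CPM, SD, n = 6, log2 fold change 0.42, edgeR adjusted p = 9.45e-04), and Il18bp, its soluble inhibitor (6.81 ± 1.39 against 11.6 ± 2.179 CPM, log2 fold change 0.77, edgeR adjusted p = 4.26e-04). Il18 also rose with MDA-MB-231 EV against PBS, by 0.39. With the fall of Il1a, 33.3% of the list were called there, beside 11.7% of all genes. In the MCF10A/miR-122 EV group 8 of 13 Kupffer cell and macrophage markers rose as well, with a median log2 fold change of 0.47 over the 13, and in the MDA-MB-231 EV group 0 of 13 were called. The part of these cells in the levels of Il18 and Il18bp was not tested. Of 16 genes of interleukin-1 signal transduction, 1 rose and 1 fell in each of these comparisons with PBS, a share of 12.5% beside 17.9% of all genes with MCF10A/miR-122 EV and 11.7% with MDA-MB-231 EV. Tab1, a partner of the kinase TAK1, fell from 4.43 ± 0.940 CPM to 2.38 ± 0.409 and 2.53 ± 0.416 CPM (n = 6 each) with MCF10A/miR-122 EV and with MDA-MB-231 EV, and Peli1, a ubiquitin ligase of the receptor complex, rose by 0.34 on the log2 scale in both, a call that was lost with MDA-MB-231 EV without any of 5 of the 24 libraries. The median of the 16 was 0.01 and -0.01, beside 0.00 over all genes. With MCF10A EV against PBS 0 of the 6 and 0 of the 16 were called, where 1.07% of all genes were.

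Of 14 NF-kB factors and inhibitors, Nfkbia, which encodes the inhibitor that NF-kB induces against itself, rose with MCF10A/miR-122 EV and with MDA-MB-231 EV. It was at 31.8 ± 3.93 CPM in PBS, 35.5 ± 7.72 with MCF10A EV, 52.8 ± 11.03 with MCF10A/miR-122 EV and 52.5 ± 7.36 with MDA-MB-231 EV (SD, n = 6 each). The log2 fold changes against PBS were 0.73 and 0.72 in these last 2 groups (edgeR adjusted p = 7.5e-04 and 0.00136), neither overlaps with PBS, and both differences from PBS cross the library sets. Nfkb1 and Nfkbie fell in the MCF10A/miR-122 EV group, by 0.30 and 0.38. The other 11 were not called there, and the median of the 14 was -0.05. Against PBS 21.4% of the list were called with MCF10A/miR-122 EV and 7.14% with MDA-MB-231 EV, beside 17.9% and 11.7% of all genes. With MCF10A EV 0 of the 14 were called, beside 1.07%.

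Of 8 tested interleukin-6 family ligands and other receptors, Cntf, the ciliary neurotrophic factor gene, rose against PBS with MCF10A/miR-122 EV (log2 fold change 1.05, edgeR adjusted p = 0.00564) and MDA-MB-231 EV (0.89, adjusted p = 0.0245, lost without any of 2 libraries), at 1.03 CPM in PBS and 2.16 and 1.92 CPM in these groups by mean. Lepr, the leptin receptor, which is built like gp130, was called with MCF10A/miR-122 EV against PBS at a log2 fold change of 2.20 (edgeR adjusted p = 0.0231). Its level there rests on replicate 3 at 211 CPM, with a group median of 13.4, and without that library the value was 0.29 with an edgeR adjusted p of 0.627. Of 13 Janus kinases, adaptors and other STAT factors, Stat5a, the growth hormone and cytokine responsive neighbour of Stat3, fell from 21.4 ± 4.15 CPM in PBS to 12.9 ± 1.91 and 13.4 ± 1.63 CPM (n = 6 each) with MCF10A/miR-122 EV and with MDA-MB-231 EV. The log2 differences were -0.73 and -0.67 (edgeR adjusted p = 8.92e-04 and 0.00266), with no overlap. Stat3 and Stat5a overlap on opposite strands over 0.756% of the exon bases of Stat3. Stat6 fell by 0.16 with MCF10A/miR-122 EV (edgeR adjusted p = 0.0445), a call lost without any of 10 libraries, and the remaining 11 of 13 were not called against PBS. The shares of the 8 and of the 13 called against PBS were 25% and 15.4% with MCF10A/miR-122 EV, beside 17.9% of all genes. With MDA-MB-231 EV they were 12.5% and 7.69%, beside 11.7%, and with MCF10A EV 0% and 0%, beside 1.07%.

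Of 15 further brakes on the pathway, the SOCS, PIAS and phosphatase genes without Socs3, 2 rose and 2 fell in the MCF10A/miR-122 EV group against PBS. In the MDA-MB-231 EV group 1 rose and 2 fell, and in the MCF10A EV group 1 fell. These are shares of 26.7%, 20% and 6.67%, beside 17.9%, 11.7% and 1.07% of all genes. Socs4 rose by 0.59 and 0.52 in the first and second of these groups, and Pias4, a SUMO ligase, fell by 0.25, 0.41 and 0.32 in the 3 groups in the order just given. The fall of Pias4 with MCF10A EV had an edgeR adjusted p of 0.0496 and was lost without any of 16 libraries. The calls with MDA-MB-231 EV were lost without any of 6 libraries for Socs4 and 3 for Ptpn6, and that of Pias4 with MCF10A/miR-122 EV without any of 3. Ptpn6, the SHP-1 phosphatase, fell by 0.32 and 0.24 with MCF10A/miR-122 EV and with MDA-MB-231 EV. Of 6 genes around the shedding of receptors, Adam10, a protease that can cut the interleukin-6 receptor from the membrane, was not called in any comparison, and Rhbdf2, a cofactor of ADAM17, fell by 0.38 with MDA-MB-231 EV against PBS. Timp3, an inhibitor of ADAM17, rose by 0.68 with MCF10A/miR-122 EV against MCF10A EV (edgeR adjusted p = 0.0435), a call lost without any of 8 libraries.

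Downstream of both receptors, 29 of 30 genes on the acute phase list were tested. The list also holds genes of other kinds, among them the C/EBP factor genes Cebpb and Cebpd and the cytokine gene Il6. Cebpb and Cebpd are among the genes that rose against PBS with MCF10A/miR-122 EV and with MDA-MB-231 EV. With MCF10A/miR-122 EV 11 of the 29 rose against PBS and none fell, led by the serum amyloid genes Saa3, Saa1 and Saa2. Saa3 was at 4.07 ± 0.855 CPM in PBS and 67.0 ± 32.3 CPM in this group, and Saa1 at 26.9 ± 12.02 and 566 ± 173 CPM (SD, n = 6 each), with log2 fold changes of 4.04 and 4.39 (edgeR adjusted p = 1.33e-10 and 6.86e-10). With MDA-MB-231 EV 6 rose and none fell, and Saa1 and Saa3 lay at 38.6 ± 21.1 and 4.07 ± 0.954 CPM. With MCF10A EV 3 rose, Lcn2, Hp and Itih3, by 1.23, 0.64 and 0.41, genes named here after their values were seen because they are the only ones called. The shares called against PBS were 37.9% with MCF10A/miR-122 EV, 20.7% with MDA-MB-231 EV and 10.3% with MCF10A EV. Beside these stood 17.9%, 11.7% and 1.07% of all genes. With 1 library left out, the genes called against PBS ranged from 11 to 12, from 4 to 7 and from 3 to 6 in these groups. The log2 difference of MDA-MB-231 EV from MCF10A/miR-122 EV in Saa1 was -3.87 (edgeR adjusted p = 3.21e-08). This comparison lies within a set. In it 5 of the 29 acute phase genes were lower, and so were 3 of 13 Kupffer cell and macrophage markers, Emr1 (-1.13), Vsig4 (-0.65) and Cd5l (-1.12), beside 0.254% of all genes called. Without MCF10A/miR-122 EV replicate 3 these were 4 of 29 and 0 of 13, the latter count being 0 without any of 3 libraries, and the part of the macrophages in the acute phase genes was not tested. The median of the 29 against PBS was 0.32, 0.30 and 0.21 for MCF10A EV, for MCF10A/miR-122 EV and for MDA-MB-231 EV, beside 0.01 or less over all genes. Against MCF10A EV, across the sets, 8 were higher and 4 lower with MCF10A/miR-122 EV (41.4%, beside 16.2% of all genes). The 4 were Fga (-0.41), Fgg (-0.40), Itih3 (-0.34) and Serpina3m (-0.68). With MDA-MB-231 EV against MCF10A EV 1 was higher and 2 lower (10.3%, beside 7.68%), and 1 to 3 were called with 1 library left out. Saa1 and Saa2 are close in sequence, so the split of reads between them is uncertain.

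Of 13 tested regulators that STAT3 is known to induce, a list that includes Socs3, 5 rose and 2 fell with MCF10A/miR-122 EV against PBS. With MDA-MB-231 EV 3 rose and 2 fell, and with MCF10A EV 1 rose. These are shares of 53.8%, 38.5% and 7.69%, beside 17.9%, 11.7% and 1.07% of all genes. With 1 library left out, the genes called ranged from 6 to 7, from 3 to 6 and from 1 to 2 in these comparisons. Cebpb and Cebpd are also on the acute phase list, so their rises are counted in both lists. Cebpb, a C/EBP factor of the acute phase response, was at 37.5 ± 14.3, 59.8 ± 19.2, 104 ± 31.5 and 66.3 ± 19.9 CPM in PBS, then with MCF10A EV, with MCF10A/miR-122 EV and with MDA-MB-231 EV (SD, n = 6 each). It rose by 1.48 and 0.82 in the last 2 groups (edgeR adjusted p = 2.64e-04 and 0.0315), and the latter call was lost without any of 6 libraries. Pim1, a kinase gene that STAT3 induces, fell in them by 1.25 and 1.32 (edgeR adjusted p = 1.82e-04 and 1.94e-04), from 10.3 ± 3.80 CPM in PBS to 4.36 ± 1.15 and 4.14 ± 0.307 CPM. Lrg1, which encodes a secreted leucine-rich glycoprotein, rose in all 3 EV groups, by 0.82, 0.44 and 0.45, and is the only gene of this list called with MCF10A EV. Its call with MDA-MB-231 EV was lost without any of 4 libraries. Genes of the list thus moved in both directions, and its median was -0.09, 0.10 and 0.09 in the 3 comparisons.

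**Figure D4:**
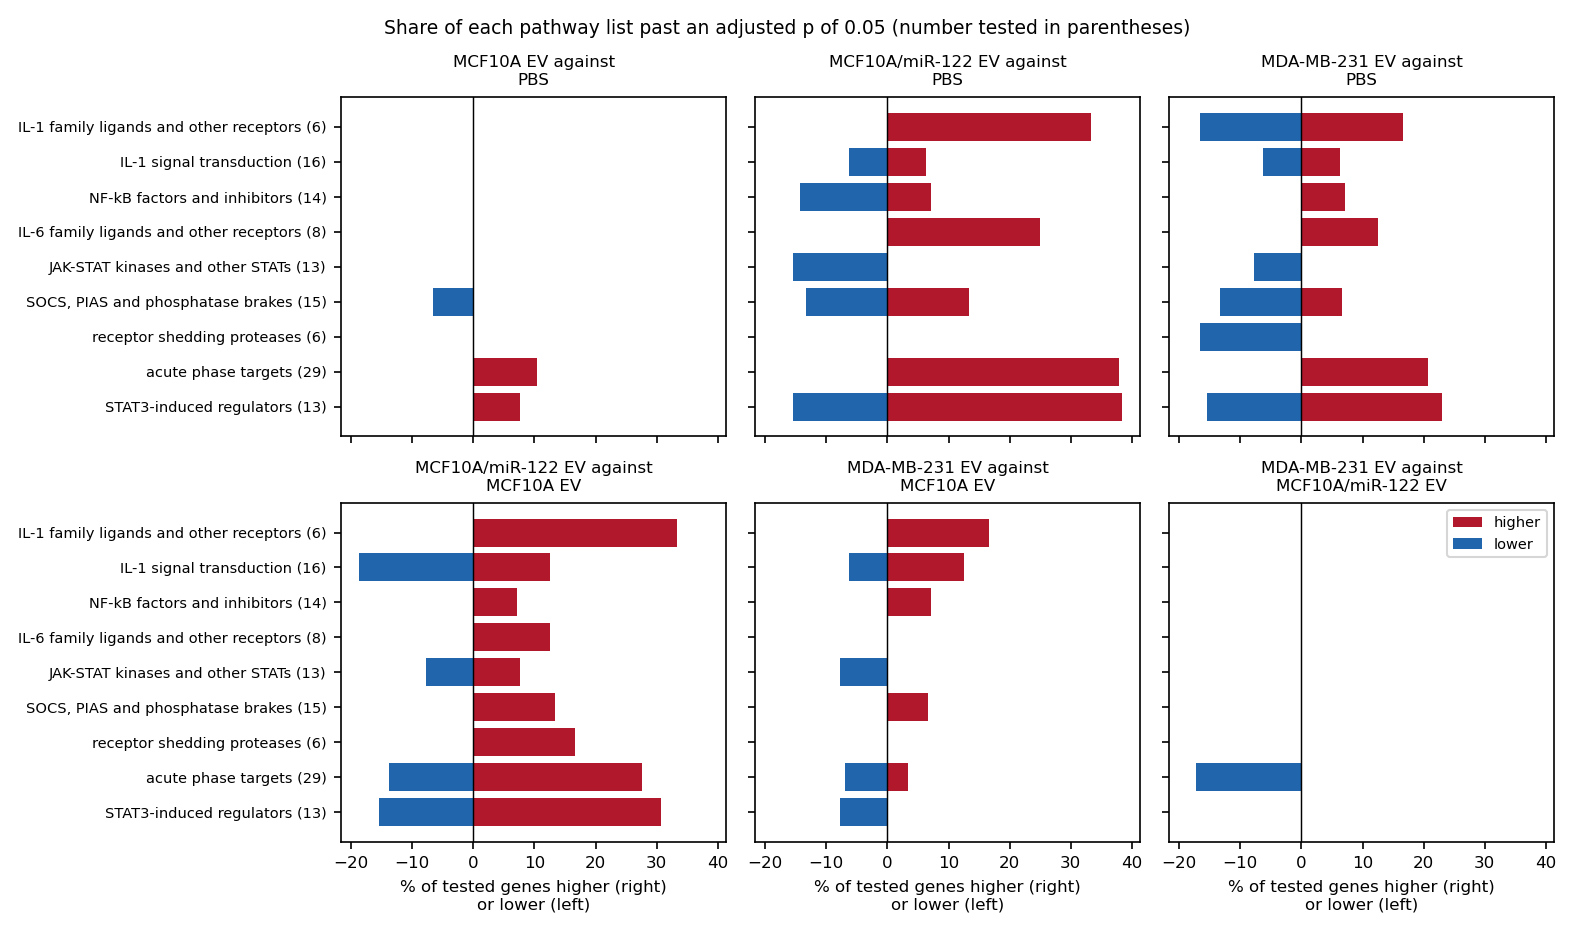
Percent of the tested genes of each pathway list that were higher (bars to the right) or lower (bars to the left) at an adjusted p under 0.05, in each of the 6 comparisons. The number tested is in parentheses. Between MDA-MB-231 EV and MCF10A/miR-122 EV only the acute phase list has bars, with 5 of 29 lower.

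Genes whose level was most like that of a member over the 24 libraries, by the Pearson r of log2 CPM, are given as a description, since the libraries share sets, groups and depth. For Il1r1 they were Hexim1 (0.924), Prdm2 (0.908) and Arrdc2 (0.908), and for Il6ra 4933426M11Rik (0.918), Rc3h1 (0.910) and Man2a1 (0.909). For Il1rap they were C1s (0.881), Amy1 (0.810) and Zmat1 (0.770), and for Il1rn Grpel2 (0.834), Tenc1 (0.829) and Flcn (0.816). Il6st was followed by Pak2 and Anapc1 (0.886 each) and Glg1 (0.884), Stat3 by Pzp (0.789), Gm10069 (0.784) and Arsb (0.725), and Socs3 by Sppl3 (0.903), Spns1 (0.720) and Gpsm3 (0.719). For Osmr they were Esam (0.858), Oit3 (0.829) and Lass4 (0.812). For Lifr they were Cyp2c69 (0.790), Cyp2c68 (0.762) and Cyp2c67 (0.760), neighbours of a multigene family whose reads the counting could split. After each group's mean was taken away, the most alike were Brpf1 for Il1r1 (0.842), C1s for Il1rap (0.869), Gys2 for Il1rn (0.856), Crkl for Il6ra (0.911) and Deptor for Il6st (0.933). They were Pzp for Stat3 (0.803), Sppl3 for Socs3 (0.924), Esam for Osmr (0.893) and Igfals for Lifr (0.887). C1s, Pzp, Sppl3 and Esam led on both scales, while the gene most like Il1r1 changed once group means were removed.

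Among the members themselves, the deviations from group means gave a Pearson r of 0.736 for Il6ra with Il6st, 0.674 for Il6st with Stat3 and 0.553 for Il6ra with Stat3, so these 3 genes of the interleukin-6 arm tended to be high in the same livers. Il6ra with Lifr had an r of -0.543 and Il1rn with Socs3 0.570, and the latter pair shared its highest library. Il1r1 and Il6ra, which rose in the same groups, had an r of 0.590 over all 24 libraries and 0.204 once group means were taken away.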

How the data were processed

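The authors deposited 1 table of raw counts of reads for each gene symbol in all 24 libraries. The submitters' processing notes name bcl2fastq 2.18.0.12, TopHat2 and the build mm9. How reads were counted, with which annotation and strand setting, is not given in the sources used here. Per the labels, RNA was extracted with TRIZOL and a stranded mRNA kit was used. The table's columns matched the library names in the labels, and each of its rows has a gene symbol. Left out were 27 rows with 11 symbols that occur more than once (0.0744% of counts).

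Genes were tested by edgeR 4.0.16 (quasi-likelihood F test, in R 4.3.3) in 1 fit of the 24 libraries that held a mean for each group, after TMM scaling and edgeR's own filter on low counts (filterByExpr). Tests were two-sided and adjusted by the Benjamini-Hochberg method over 13773 genes. SEs and 95% intervals come from the F statistic, and CPM from TMM-scaled library sizes. The common biological coefficient of variation was 16.8%. Ratios of 2 genes in a library were compared by exact permutation over 924 rearrangements, 5 ratios in 6 comparisons. On simulated counts for MDA-MB-231 EV against PBS (13653 genes), the test found 42 of 67 genes given a 1.5-fold change. It found 55 of 67 given a 2-fold change and 65 of 66 given a 4-fold change, with 6 false calls among 168. No other genes were changed there, and each gene had the same spread in all groups. In the data 11.7% of all genes were called in this comparison, so these rates need not hold for it. Alternatives were RLE size factors, DESeq2 1.42.0, limma-voom (limma 3.58.1), no or a stricter filter (1 CPM), a replicate block, fits of only the 12 libraries compared, each library left out, and a pseudocount of 1 CPM in the ratios.

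The members, lists, tests and alternatives were chosen with earlier results of these data known. Genes named are the 9 members, up to 3 genes per list with the smallest p for any difference among groups, and for each member the 3 most correlated genes (log2 CPM of at least 1 on average, prior count 2) and the 1 most correlated after group means. Outside this rule, Serpina3a, Lcn2, Hp, Itih3, Fga, Fgg and Serpina3m were named after their values were seen. Cebpd was named because lists share it, and Il6, Osm, Lif, Il11, Il1b and Il1r2 for their role. Exon lengths, shared 32-base windows and overlaps come from GENCODE M21, promoters from RefSeq GRCm38.p6. Both are of another build than the counts and were joined by symbol.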

Additional observations from a re-analysis of the deposited data

Results flagged for a closer look

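In each of the 36 combinations of member and group, the gap between the highest or lowest library and its nearest neighbour was divided by the range of the 6 libraries and compared with Dixon's 95% critical value for 6 libraries. It was exceeded 4 times, and chance alone flags about 1 in 20 such groups. Il1r1 in MDA-MB-231 EV replicate 6 was at 74.16 CPM, with the next library at 49.26 and a gap of 0.753 of the range. Il1rn in MCF10A/miR-122 EV replicate 3 was at 20.49 CPM, with the next at 6.001 and a gap of 0.783. Stat3 in PBS replicate 3 was at 111.5 CPM, with the next at 97.69 and a gap of 0.780. Osmr in MCF10A/miR-122 EV replicate 4 was the lowest, at 1.301 CPM, with the next at 2.801 and a gap of 0.739.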

How the results depend on the processing

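The 54 log2 fold changes of the members were recomputed under 31 alternatives, 1674 values in all. Of these, 1566 kept their direction and their side of the threshold, 38 lost the call, none gained it, none turned a called direction and 70 changed the sign of a value that was not called. Between MCF10A/miR-122 EV and MCF10A EV, the 2 members called became 1 with limma-voom and 1 with only the 12 libraries compared, as Il6ra then had an adjusted p of 0.0562 and 0.116 at log2 fold changes of 0.75 and 0.77; the cause was not tested. For MDA-MB-231 EV against PBS, the adjusted p of Il6ra was 0.0729 with limma-voom and 0.058 with no filter, at 0.74 and 0.76. It was 0.0025 with only the 12 libraries compared and 0.0218 with DESeq2, at 0.75 and 0.76. With 1 library left out, the members called ranged from 0 to 1 for MCF10A EV against PBS, from 1 to 3 for MDA-MB-231 EV against PBS and from 0 to 2 for MCF10A/miR-122 EV against MCF10A EV.

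The count over all genes depended on the setting within the sets: for MCF10A EV against PBS, 147 became 414 with DESeq2, 27 with only the 12 libraries compared and 26 to 741 with 1 library left out, and for MDA-MB-231 EV against MCF10A/miR-122 EV, 35 became 98, 23 and 13 to 82. Of the 30 ratio tests, 7 were called, and 5 to 10 with 1 library left out. With the replicate number as a block, 0 of the 54 member calls changed and the members called stayed at 1, 2, 3, 2, 0 and 0 in the 6 comparisons. Same-numbered libraries did not deviate together: pair correlations ran from -0.43 to 0.374, at most 3 of 6 in a comparison were over 0.1, and 4 of 24 libraries were most like one of their own number. Depth limits Osmr and Il1rn most, with as few as 38 and 20 counts in a library.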
